A study of Mus musculus with 24 samples.

Results

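Elastic fibres give the wall of the aorta its recoil. Smooth muscle cells and fibroblasts secrete tropoelastin, which is laid onto a scaffold of fibrillin microfibrils with the help of fibulins and is then joined into an insoluble polymer by lysyl oxidases. The fibres are built mainly before and shortly after birth, they turn over very slowly in the adult, and their breakdown and mineralisation are known features of arterial calcification. The 10 genes followed here were taken by gene name from the 32561 genes of the deposited expression table: Eln (elastin itself), Fbn1, Mfap4, Mfap5 and Emilin1 (microfibril and interface proteins), Fbln1, Fbln5 and Efemp2 (fibulins), and Lox and Loxl1 (crosslinking enzymes). Each name matched 1 gene.

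Whole aortas were taken from 24 mice in 6 groups of 4. All mice were of the 129S1/SvlmJ background (129S1SvlmJ in the strain label), 44 to 53 days old, fed moistened chow, and born to heterozygous parents, and each aorta was frozen at dissection. Kl/Kl mice, with 2 copies of a recessive Klotho mutation and labelled as having renal failure, were compared with controls labelled as having healthy kidneys. The controls carried Klotho +/Kl, except replicate 1 of the Bmp2+/+ male controls, which was Klotho +/+. This comparison was made in Bmp2+/+ males, in Bmp2+/+ females, and in males homozygous for the Bmp2 deltaUCS allele (dUCS). dUCS and Bmp2+/+ males were also compared, among controls and among Kl/Kl mice. Both mutations are carried by every cell of the animal, so the labels tie neither the Klotho nor the Bmp2 effect to the vessel wall, and no dUCS females were analysed here.

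Values are TPM as deposited, that is, reads divided by gene length and by a library total. The length was the whole genomic span, introns included, so TPM compares 1 gene between libraries and not genes with each other. The libraries held an estimated 20589000 to 61095000 reads in genes, and mitochondrial genes took 40.2% to 61.2% of each library's TPM total. In 2 libraries, Bmp2+/+ male Kl/Kl replicate 1 and Bmp2+/+ female Kl/Kl replicate 2, the sex-linked transcripts go against the labelled sex. Spp1 (osteopontin) was at 0.46 and 0.35 TPM in them, within the range of all control libraries (0.199 to 5.54 TPM) and below every other Kl/Kl library (35.3 to 286.0 TPM). The main values therefore come from the other 22 libraries, and values with all 24 are given beside the results that turn on them. Changes are log2 differences of TPM + 1 from a limma fit over 9933 genes, with p-values adjusted over all of them. Genes under 1 TPM in more than 20 of 24 libraries were not in that fit, which among the 10 genes removed only Fbn1.

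The dissected aortas held RNA of several tissues. The 10 smooth muscle markers, Myh11, Acta2 and Tagln among them, summed to between 140 and 846 TPM in the 22 libraries, and in every group each marker's median was at least 208 estimated reads. Adventitial fibroblast markers summed to between 78.4 and 241 TPM, adipocyte markers to between 1357 and 3088 TPM, cardiomyocyte markers to between 31.3 and 4103 TPM, and airway epithelium markers to between 6.65 and 3279 TPM. In bulk RNA of this kind, fewer cells of a type and less RNA per cell cannot be told apart.

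On the RPKM scale, estimated reads per kilobase of annotated exon set against the reads in genes, genes can be compared, and the median level over the libraries was highest for Mfap4 (85.7), followed by Eln (42.5) and Mfap5 (21.7). Lox and Fbln5 (13.7 each), Fbln1 (12.6), Loxl1 (12.3) and Fbn1 (8.3) formed the middle of the range. Efemp2 (3.69) and Emilin1 (3.67) were lowest. These levels varied widely between libraries: Eln alone ran from 14.5 to 148 on this scale, so genes next to each other in the order overlap.

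Promoters of 5 of the 10 genes are in the RefSeq table for build GRCm38.p6: those of Fbn1, Emilin1, Fbln1, Fbln5 and Efemp2. Emilin1 and Efemp2 are printed because their levels moved together from library to library, as given further on, and Fbn1 as the backbone gene of the microfibril. Of the 3 starts listed for Efemp2 the second is shown. Each sequence is the 250 bases before a listed transcription start, 5′ to 3′ on the gene's strand. Capitals mark matches on either strand to GGGCGG (the GC box), TATAAA (the TATA box), TGACTCA (an AP-1 site), CAGAC (a SMAD box) or GGCGCC (a GC-rich SMAD element), and overlapping matches run together.
Fbn1, chr2:125506439-125506688, minus strand: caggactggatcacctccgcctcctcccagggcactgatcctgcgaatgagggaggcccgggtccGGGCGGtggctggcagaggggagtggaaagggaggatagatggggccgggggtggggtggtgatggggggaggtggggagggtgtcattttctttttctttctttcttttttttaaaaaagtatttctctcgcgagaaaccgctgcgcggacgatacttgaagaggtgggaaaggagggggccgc
Emilin1, chr5:30913536-30913785, plus strand: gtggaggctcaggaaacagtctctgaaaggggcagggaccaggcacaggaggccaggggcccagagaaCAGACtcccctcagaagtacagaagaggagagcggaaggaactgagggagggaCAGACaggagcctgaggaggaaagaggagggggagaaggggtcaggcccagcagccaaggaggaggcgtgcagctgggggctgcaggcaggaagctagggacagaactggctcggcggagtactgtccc
Efemp2, second of its 3 listed starts, chr19:5474440-5474689, plus strand: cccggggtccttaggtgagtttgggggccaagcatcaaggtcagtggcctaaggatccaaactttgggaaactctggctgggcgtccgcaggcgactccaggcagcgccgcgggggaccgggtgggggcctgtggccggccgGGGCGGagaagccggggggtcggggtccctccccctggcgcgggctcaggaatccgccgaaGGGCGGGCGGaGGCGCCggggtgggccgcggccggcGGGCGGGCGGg
The Fbn1 window held 1 GC box, the Emilin1 window 2 SMAD boxes, and the Efemp2 window 5 GC boxes and 1 GC-rich SMAD element. None of the 3 windows held the TATA or the AP-1 letters. Over 32851 promoter windows of the same length, 32.7% held the GC box, 42.2% the SMAD box, 9.59% the GC-rich SMAD element, 12.4% the TATA box and 4.46% the AP-1 site. GC content was 59.2% for Fbn1, 63.2% for Emilin1 and 75.6% for Efemp2, against a median of 52.4% over all windows. Of the Efemp2 starts not printed, the first held 2 GC boxes and 2 SMAD boxes, the motif also found in the Emilin1 window, and the third, as the second, 5 GC boxes and 1 GC-rich SMAD element.

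Eln encodes tropoelastin, the core of the fibre (chromosome 5:134731447-134776178, minus strand, build mm39). In Bmp2+/+ male controls it stood at 12.2, 5.71, 4.68 and 3.59 TPM in replicates 1 to 4. In Bmp2+/+ male Kl/Kl replicates 2 to 4 it stood at 30.3, 3.21 and 6.66 TPM, and in the left-out replicate 1 at 4.34 TPM. The 2 male groups overlapped, and the Kl/Kl group held both the highest value of all libraries and a value below every male control. Means were 6.55 ± 3.88 TPM (SD, n = 4) and 13.4 ± 14.8 TPM (SD, n = 3).

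In females the Eln values separated. Controls stood at 2.12, 3.09, 3.89 and 6.78 TPM, and Kl/Kl replicates 1, 3 and 4 at 22.2, 8.09 and 7.31 TPM, with the left-out replicate 2 at 24.5 TPM. Every female Kl/Kl library was thus above every female control, although the nearest values, 7.31 and 6.78 TPM, lay close. The fitted change was 1.36 (SE 0.54) and its limma adjusted p of 0.146 did not pass 0.05. With all 24 libraries the change was 1.63 (SE 0.50, adjusted p 0.224 in limma).

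dUCS males showed the opposite order. Their controls stood at 14.6, 13.4, 26.3 and 23.5 TPM, the highest group mean of the 6 (19.5 ± 6.42 TPM, SD, n = 4), and their Kl/Kl mice at 6.41, 12.1, 11.7 and 17.1 TPM (11.8 ± 4.38 TPM, SD, n = 4). These 2 groups overlapped through the 17.1 TPM library. The change of -0.69 (SE 0.50) had a limma adjusted p of 0.449, and the corresponding male Bmp2+/+ change of 0.43 (SE 0.55) had one of 0.829. The difference between the Klotho effects of dUCS and Bmp2+/+ males was -1.12 for Eln (SE 0.75, limma adjusted p 0.956) and did not pass either. In that test 0% of all genes passed, and 2.06% had an unadjusted p under 0.05.

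Among controls, dUCS males had more Eln than Bmp2+/+ males in every library: the lowest dUCS value, 13.4 TPM, was above the highest Bmp2+/+ value, 12.2 TPM. The change was 1.20 (SE 0.57), with an unadjusted p of 0.0511 and a limma adjusted p of 0.959. Among Kl/Kl males it was 0.08 (SE 0.57, limma adjusted p 1). The library names fall into 2 spellings, and all dUCS libraries share 1 spelling with 2 of the 4 Bmp2+/+ male controls. Within that set alone the control change of Eln was 1.18 (SE 0.67, limma adjusted p 0.817). The control males of each Bmp2 genotype serve in both the Klotho and the Bmp2 comparison, so the higher Eln of dUCS controls enters both.

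**Figure D1:**
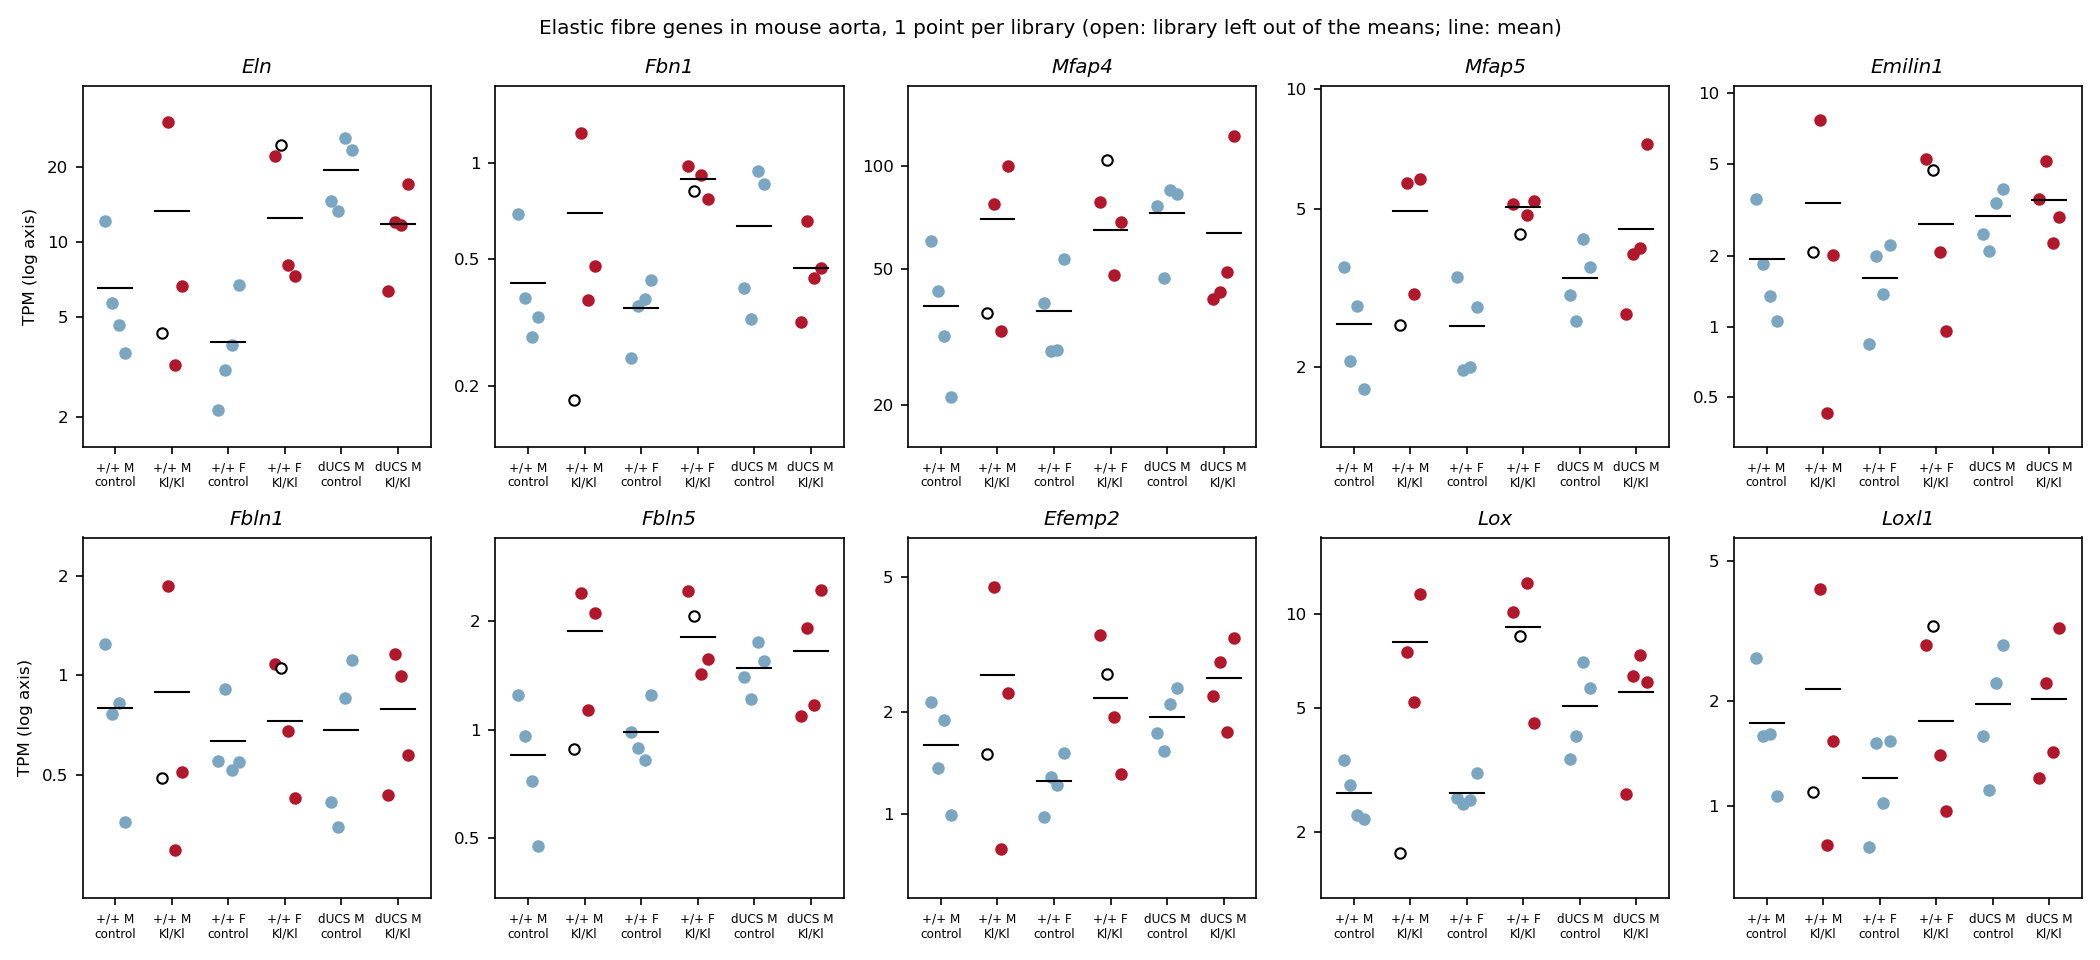
TPM of each of the 10 genes (vertical log axis, a separate scale per gene) in every library of the 6 groups, where +/+ is Bmp2+/+, M male and F female; blue points are controls, red points Kl/Kl, open points the 2 left-out libraries and lines the means of the others. Lox is at 2.20 to 3.41 TPM in the 8 Bmp2+/+ controls of both sexes and at 4.49 TPM or above in the 6 kept Bmp2+/+ Kl/Kl libraries.

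The crosslinking enzymes behaved unlike each other. Lox, on chromosome 18, encodes lysyl oxidase, the copper-dependent enzyme that oxidises lysines of tropoelastin and collagen. Bmp2+/+ male controls stood at 3.41, 2.83, 2.28 and 2.20 TPM and Kl/Kl replicates 2 to 4 at 7.55, 5.25 and 11.6 TPM. Female controls stood at 2.58, 2.47, 2.54 and 3.11 TPM and Kl/Kl replicates 1, 3 and 4 at 10.2, 12.6 and 4.49 TPM. In both sexes no kept Kl/Kl library overlapped its controls. Group means were 2.68 ± 0.563 TPM (SD, n = 4) against 8.12 ± 3.19 TPM (SD, n = 3) in males, and 2.67 ± 0.293 TPM (SD, n = 4) against 9.1 ± 4.16 TPM (SD, n = 3) in females.

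Lox was the only 1 of the 9 fitted genes to pass the threshold in any of the 5 comparisons, and it did so in females. It rose there by 1.36 (SE 0.32, limma adjusted p 0.0264), in a comparison in which 2.6% of all tested genes passed. The male change was of like size, 1.30 (SE 0.33), and its limma adjusted p of 0.0629 did not pass, where 1.1% of all tested genes did. The difference between the sexes' Klotho effects on Lox was 0.06 (SE 0.46, limma adjusted p 0.992), in a test where 0% of all genes passed and 1.43% had an unadjusted p under 0.05. In dUCS males 0 of the 9 genes passed, where 0.644% of all tested genes did. At an unadjusted p under 0.05 the counts were 3 of the 9 in Bmp2+/+ males (Lox, Mfap5 and Fbln5; 11% of all tested genes), 4 in females (these and Eln; 24.8%) and 0 in dUCS males (16.8%).

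The female Lox call depended on the libraries and the scaling. On all 24 libraries the female change was 1.37 (SE 0.36) with a limma adjusted p of 0.15, and the male change 0.84 (SE 0.36) with one of 0.787. Without any 1 of female control replicates 2, 3 and 4 or Kl/Kl replicates 1 and 3 the limma adjusted p was also above 0.05, between 0.0501 and 0.191. Without male Kl/Kl replicate 3, in contrast, the male change was 1.51 (limma adjusted p 0.0233), and Fbln5 (0.83, adjusted p 0.0346) and Mfap5 (0.98, adjusted p 0.0427) passed with it. Within the library sets the male Lox change was 0.94 (SE 0.43, limma adjusted p 1) in the first and 1.84 in the second. The second value rests on Kl/Kl replicate 4 (11.6 TPM), the only male Kl/Kl library kept in that set. All females belonged to the second set. Of the 2 left-out libraries, the female one had 8.51 TPM of Lox, within the Kl/Kl range, and the male one 1.72 TPM, below all male controls. In the fit of all 24, 0% of the table passed in any of the 5 comparisons. An unadjusted p under 0.05 was then seen for 603 genes in Bmp2+/+ males (6.07%), 1498 in females (15.1%) and 1628 in dUCS males (16.4%), and for 166 (1.67%) and 89 (0.896%) between Bmp2 genotypes among controls and Kl/Kl males. Scaled by the median of ratios, which sets the median gene level with the others, the female change was 0.95 (limma adjusted p 0.0967) and the male change 1.15 (limma adjusted p 0.0737). limma voom on estimated reads gave 1.09 (adjusted p 0.152) and 1.45 (adjusted p 0.089). In females 3.79% of all tested genes passed with median-of-ratios scaling and 3.24% in voom, and in males 1.75% and 1.5%. The deposited scaling itself put the median of all genes 0.29 higher in female Kl/Kl than in female controls, and 0.09 higher in males.

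In dUCS males, Lox did not differ by Klotho genotype beyond the spread. Controls stood at 3.44, 4.08, 7.06 and 5.81 TPM and Kl/Kl mice at 2.65, 6.36, 7.42 and 6.08 TPM, so the 2 groups covered the same range. The change was 0.09 (SE 0.30, limma adjusted p 0.858). The dUCS controls already lay above all 4 Bmp2+/+ male controls, by 0.82 in the fit (SE 0.34, limma adjusted p 0.959). The difference of Klotho effects between dUCS and Bmp2+/+ males was -1.21 (SE 0.44, unadjusted p 0.0136, limma adjusted p 0.956). It did not pass, and its dUCS and Bmp2+/+ parts rest on the same controls as the Bmp2 comparison.

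Loxl1 encodes a related oxidase known for the upkeep of elastic fibres in adult tissue. It ranged from 1.07 to 2.65 TPM in Bmp2+/+ male controls, was at 4.17, 0.775 and 1.53 TPM in their Kl/Kl replicates 2 to 4, and ranged from 0.764 to 1.53 TPM in female controls. Its Klotho changes were 0.04 (SE 0.33) in Bmp2+/+ males, 0.27 (SE 0.33) in females and 0.02 (SE 0.30) in dUCS males, each smaller than its error. Over 24 libraries the Loxl1 changes were -0.02 (SE 0.30) in Bmp2+/+ males and 0.45 (SE 0.30) in females. Groups overlapped in all 5 comparisons.

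The microfibril scaffold was followed through Fbn1 (fibrillin-1), Mfap4 and Mfap5, which bind fibrillin, and Emilin1, which sits where elastin meets the microfibrils. Fbn1 was below the filter because its 207401-base span lowers its TPM, not for want of reads: the 22 libraries had an estimated 1790 to 10323 reads of it. In females it stood at 0.245, 0.356, 0.376 and 0.429 TPM in controls and at 0.973, 0.915 and 0.77 TPM in Kl/Kl replicates 1, 3 and 4, with the left-out library at 0.815 TPM. The groups did not overlap. The log2 difference of TPM + 0.001 was 1.35 by an exact two-sided permutation test (p = 0.0286, unadjusted over the 5 comparisons of this gene), the smallest p that 3 against 4 libraries can give. On the median-of-ratios scale the same difference was 0.86 (exact permutation p = 0.0286), again without overlap. With all 24 libraries it was 1.32 (exact permutation p = 0.0286). In limma voom on estimated reads the female change of Fbn1 was 0.81 and did not pass. There 0 of the 10 genes passed, and the lowest limma voom adjusted p among them was 0.152.

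Elsewhere Fbn1 overlapped between groups. Bmp2+/+ male controls stood at 0.689, 0.378, 0.285 and 0.328 TPM and Kl/Kl replicates 2 to 4 at 1.24, 0.371 and 0.475 TPM, a log2 difference of 0.61 (exact permutation p = 0.4). With the left-out library, at 0.181 TPM, that difference was 0.17 (exact permutation p = 0.857). In dUCS males the Kl/Kl mice were lower on average, with a log2 difference of -0.33 (p = 0.514, exact permutation). The dUCS difference was 0.53 among controls (exact permutation p = 0.229) and -0.41 among Kl/Kl males (exact permutation p = 0.543), where it was 0.02 over 24 libraries (exact permutation p = 1).

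Mfap4 and Mfap5 leaned the same way as Lox in the Bmp2+/+ groups. Female control Mfap5 stood at 3.37, 1.97, 2 and 2.84 TPM. All kept female Kl/Kl libraries were higher, at 5.16, 4.82 and 5.23 TPM. Its change was 0.79 (SE 0.26, limma adjusted p 0.0994), and 0.75 over 24 libraries (limma adjusted p 0.246). In Bmp2+/+ males, Mfap5 was at 3.57, 2.08, 2.85 and 1.77 TPM in controls and at 5.81, 3.06 and 5.95 TPM in Kl/Kl mice, a change of 0.70 (SE 0.26, limma adjusted p 0.305). In dUCS males the change was 0.28 (SE 0.24, limma adjusted p 0.51).

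Mfap4, the gene of the 10 with the highest level per exon length, had means of 39 ± 16.7 TPM (SD, n = 4) in Bmp2+/+ male controls and 69.8 ± 34 TPM (SD, n = 3) in their Kl/Kl mice. Female means were 37.6 ± 11.6 TPM (SD, n = 4) and 64.9 ± 15.7 TPM (SD, n = 3). Both pairs of groups overlapped, and the changes of 0.80 (SE 0.44) and 0.79 (SE 0.43) had limma adjusted p-values of 0.522 and 0.26. Over 24 libraries the Mfap4 changes were 0.59 and 0.96 (limma adjusted p 0.844 and 0.327). In dUCS males the means were 72.7 ± 17.4 TPM (SD, n = 4) for controls and 63.6 ± 39.2 TPM (SD, n = 4) for Kl/Kl mice. That Kl/Kl group held 3 libraries at 40.8, 42.6 and 48.8 TPM and replicate 4 at 122 TPM. The Mfap4 changes were -0.31 (SE 0.40, limma adjusted p 0.638) for Klotho in dUCS males and 0.98 (SE 0.46, limma adjusted p 0.959) for dUCS among controls.

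Emilin1 spread widely inside groups, from 0.428 to 7.68 TPM among the 3 Bmp2+/+ male Kl/Kl libraries. Its largest change in the 5 comparisons was 0.39 (SE 0.46) in females, which was 0.59 (SE 0.42) over 24 libraries. It overlapped between the groups of every comparison on the deposited scale.

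Among the fibulins, Fbln5 (needed to place elastin on microfibrils) was the closest to Lox and Mfap5. Female controls stood at 0.982, 0.89, 0.822 and 1.25 TPM and Kl/Kl mice at 2.43, 1.43 and 1.57 TPM, without overlap. The change was 0.49 (SE 0.21, limma adjusted p 0.165). Male Bmp2+/+ controls stood at 1.25, 0.959, 0.722 and 0.476 TPM and Kl/Kl mice at 2.39, 1.13 and 2.11 TPM, where the 1.13 TPM library lay inside the control range. That change was 0.62 (SE 0.21, limma adjusted p 0.239), and in dUCS males it was 0.07 (SE 0.19, limma adjusted p 0.826). Over 24 libraries the Fbln5 change was 0.48 in Bmp2+/+ males and 0.52 in females (limma adjusted p 0.752 and 0.308).

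Efemp2 (fibulin-4, which brings lysyl oxidase to tropoelastin) changed by 0.28 (SE 0.30) in Bmp2+/+ males, 0.46 (SE 0.29) in females and 0.25 (SE 0.27) in dUCS males. Fbln1, a fibulin of basement membranes and elastic fibres, changed by -0.06 (SE 0.24), 0.07 (SE 0.24) and 0.10 (SE 0.22). Over 24 libraries Efemp2 changed by 0.24 and 0.52 and Fbln1 by -0.06 and 0.14 in Bmp2+/+ males and females. Neither passed in any comparison, and both overlapped between groups throughout on the deposited scale.

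**Figure D2:**
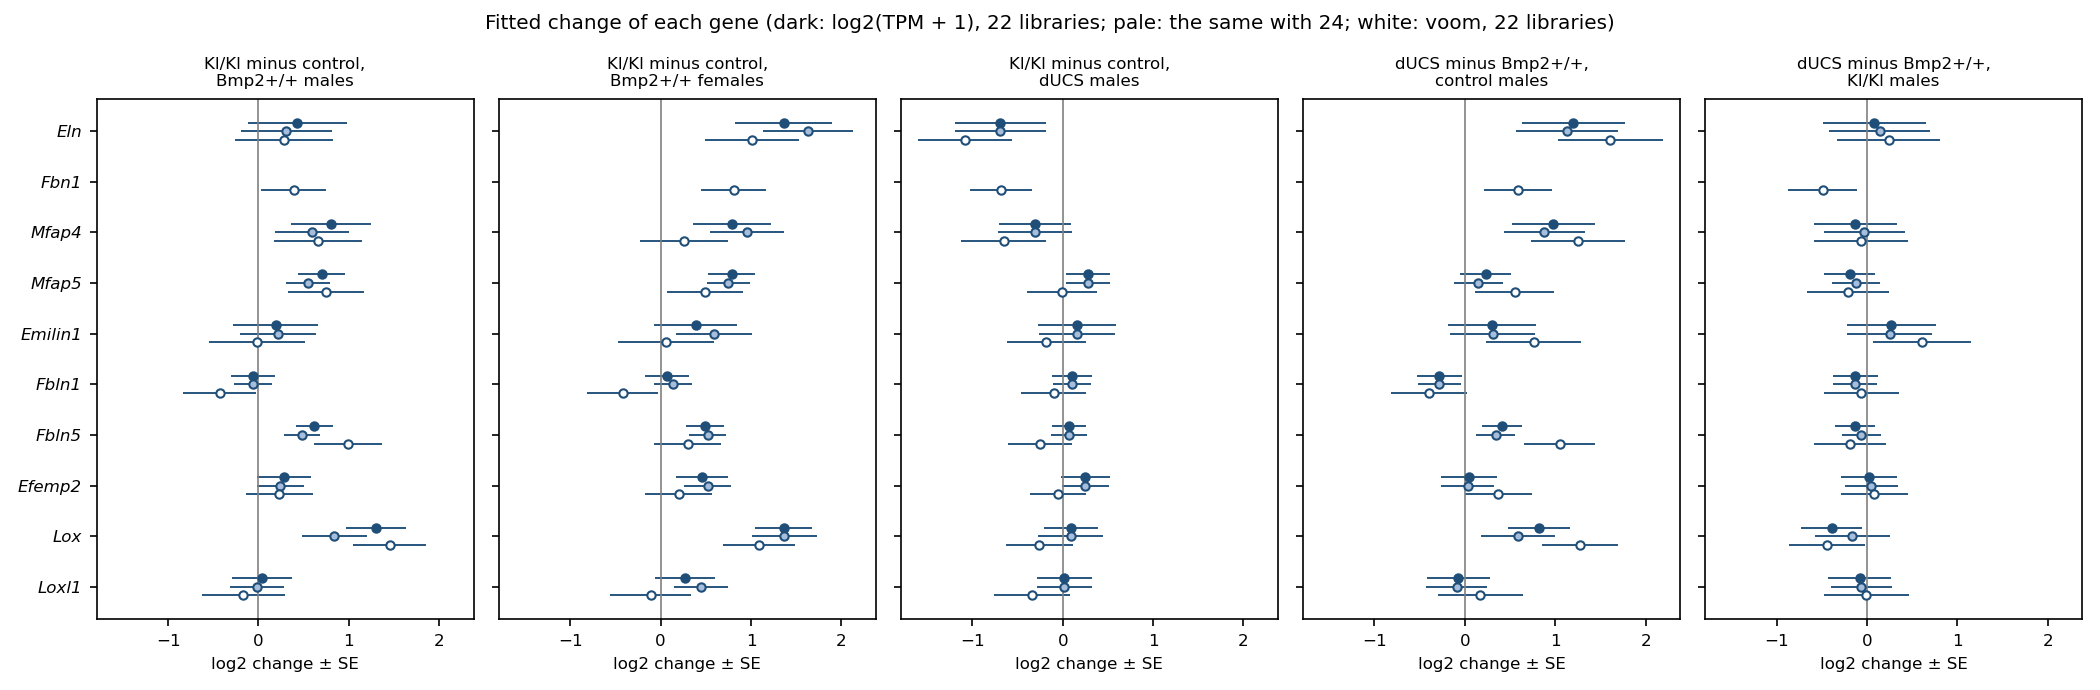
Fitted log2 change (points) with its standard error (bars) for each gene (rows) in the 5 comparisons (panels); dark points are the fit on log2(TPM + 1) with 22 libraries, pale points the same with 24, and white points limma voom on estimated reads of 22 libraries, the only one of the 3 shown for Fbn1. Lox stands at 1.30 and 1.36 in Bmp2+/+ males and females and at 0.09 in dUCS males.

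Counted over the 10 genes, the kept Kl/Kl libraries were all above all controls for 1 gene in Bmp2+/+ males (Lox; 5.73% of all tested genes were so) and for 5 in females (Eln, Fbn1, Mfap5, Fbln5 and Lox; 28.2% of all tested genes). In dUCS males the count was 0 (8.17% of all tested genes). No gene of the 10 was wholly lower in any of the 5 comparisons, where 1.19%, 1.64% and 2.1% of all tested genes were so for Klotho and 0.896% and 1.06% for dUCS. Over all 24 libraries the counts were 0 in Bmp2+/+ males (0.775% of all tested genes), 5 in females (11.7%) and 0 in dUCS males (8.17%). For median-of-ratios values, a scaling of these counts chosen after the data were seen, they were 3 in males (Mfap5, Fbln5 and Lox; 6.22%), 2 in females (Fbn1 and Lox; 8.36%) and 0 in dUCS males (5.67%). The background in females on the deposited scale was the highest of the 5 comparisons.

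The median change of the 9 fitted genes was 0.43 in Bmp2+/+ males, where the median of all tested genes was 0.09, and 0.49 in females, where it was 0.29. In dUCS males it was 0.09 against 0.26 for all tested genes. Of the 9, 8 had a change above 0 in Bmp2+/+ males, 9 in females and 7 in dUCS males. These counts turned on the scaling in dUCS males: with median-of-ratios scaling 2 of the 9 were above 0 there (median -0.10), and in voom, which also tests Fbn1, 0 of the 10 (median -0.26). With median-of-ratios scaling the counts were 7 in Bmp2+/+ males (median 0.27) and 7 in females (median 0.21). In Bmp2+/+ males 1 library also decided the count, since without Kl/Kl replicate 2 it was 4 of the 9, with a median of -0.08. Leaving out the female Kl/Kl replicate 1 gave 6 of the 9 and a median of 0.34.

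Between Bmp2 genotypes, 0 of the 9 genes passed in limma among controls or among Kl/Kl males, and 0% of all 9933 genes did. Unadjusted p-values under 0.05 were seen for Lox and Mfap4 among controls, where 216 genes of the table had one (2.17%), and for none of the 9 among Kl/Kl males, where 180 genes had one (1.81%). In the fit of all 24 libraries 0 of the 9 had one in either comparison, where 1.67% and 0.896% of all tested genes did. limma voom also called 0 genes in both. Among controls, Eln and Lox were higher in every dUCS library than in every Bmp2+/+ library, in a comparison where 0.201% of all tested genes were so. On the median-of-ratios scale that held for 7 of the 10 genes (Eln, Mfap4, Mfap5, Emilin1, Fbln5, Efemp2 and Lox; 2.33% of all tested genes). No control library was left out, so these counts without overlap are the same for 24 libraries. Among Kl/Kl males 0 of the 10 were so, with 22 libraries (0.0805% of all tested genes), with 24 (0.0403%) or on the median-of-ratios scale (0.423%).

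The smooth muscle list moved with the dUCS difference among controls. Its 9 tested genes had a median change of 0.48 on the deposited scale and 0.72 on the median-of-ratios scale, with 0 of the 9 passing, and its summed level ran from 140 to 479 TPM in Bmp2+/+ and from 370 to 589 TPM in dUCS control males. Cardiomyocyte and airway epithelium lists had medians of -1.66 and -2.18 in the same comparison, with 0 genes passing. What these lists contribute to the Eln and Lox values was not tested. In the Klotho comparisons the smooth muscle medians were 0.37 in Bmp2+/+ males, 0.16 in females and -0.15 in dUCS males, and those of the fibroblast list 0.06, 0.73 and 0.09, with 0 genes passing. On the median-of-ratios scale the smooth muscle medians were 0.25, -0.31 and -0.47 and the fibroblast medians -0.10, 0.29 and -0.17, so the female smooth muscle median changed sign. Cardiomyocyte medians for Klotho were -0.28, 1.48 and 1.14 on the deposited scale, with 0 of 7 passing. In females and in dUCS males 2 of 8 tested airway genes passed with a rise (Reg3g and Scgb3a1), and the airway medians were 1.72 and 1.90. The summed airway level of females went from 253 to 1203 TPM in controls to between 2265 and 3279 TPM in Kl/Kl mice.

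Set against the smooth muscle list in the same library, a ratio that no scaling alters and that was added after the data were seen, Eln again separated some of the groups. Its log2 level minus the list's mean log2 level was -0.43 ± 0.45 (SD, n = 4) in Bmp2+/+ and 0.84 ± 0.14 (SD, n = 4) in dUCS control males, and 0.30 ± 0.23 (SD, n = 4) in dUCS Kl/Kl males. These dUCS controls overlapped neither other group. Female controls were at -0.97 ± 0.51 (SD, n = 4) and female Kl/Kl mice at 0.48 ± 0.53 (SD, n = 3), also without overlap. For Lox, female controls were at -1.41 ± 0.27 (SD, n = 4) and female Kl/Kl mice at 0.09 ± 0.64 (SD, n = 3), without overlap. In Bmp2+/+ males it was -1.58 ± 0.61 (SD, n = 4) and -0.30 ± 0.81 (SD, n = 3), and the 2 groups overlapped. With the 2 left-out libraries added, the Eln difference was 1.47 in females and 0.17 in Bmp2+/+ males, and that of Lox 1.23 and 0.86. Fbn1 (1.21), Fbln5 (0.71) and Mfap4 (0.66) were also higher in female Kl/Kl mice without overlap, although the nearest Mfap4 values both rounded to 2.70. Over 24 libraries these genes were 0.91, 0.50 and 0.56 higher, and all of them then overlapped (exact permutation p = 0.0571, 0.114 and 0.0571). In dUCS males Mfap5 was higher in Kl/Kl mice by 0.54 without overlap, where Eln was lower (-0.54). The remaining genes overlapped throughout. The share of all tested genes that such a ratio separates was not computed.

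Set against the adventitial fibroblast list instead, some of these separations were not seen. The female Eln difference was 0.82 and the groups overlapped. The Lox difference was 0.87 in females and 1.32 in Bmp2+/+ males, both without overlap. With the 2 left-out libraries these differences were 1.16 for Eln in females, and 0.93 and 0.94 for Lox in females and Bmp2+/+ males. The male Lox groups then overlapped. In dUCS males, Eln was lower in Kl/Kl mice by this ratio too, with a difference of -0.92 and no overlap, and among controls it was 1.65 higher in dUCS than in Bmp2+/+ males, again without overlap. For Lox that dUCS difference among controls was 0.87 without overlap against the fibroblast list and 0.49 with overlap against the smooth muscle list. Against the fibroblast list, Kl/Kl mice were also apart for Fbn1 in females (0.58) and in dUCS males (-0.51). In Bmp2+/+ males they were apart for Mfap5 (0.71) and Fbln5 (0.93). dUCS males were apart for Mfap4 (0.94) and Emilin1 (0.69) among controls. Among Kl/Kl males they were apart for Fbn1 (-0.39, and -0.11 with overlap over 24 libraries). The share over all tested genes was not computed here either.

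**Figure D3:**
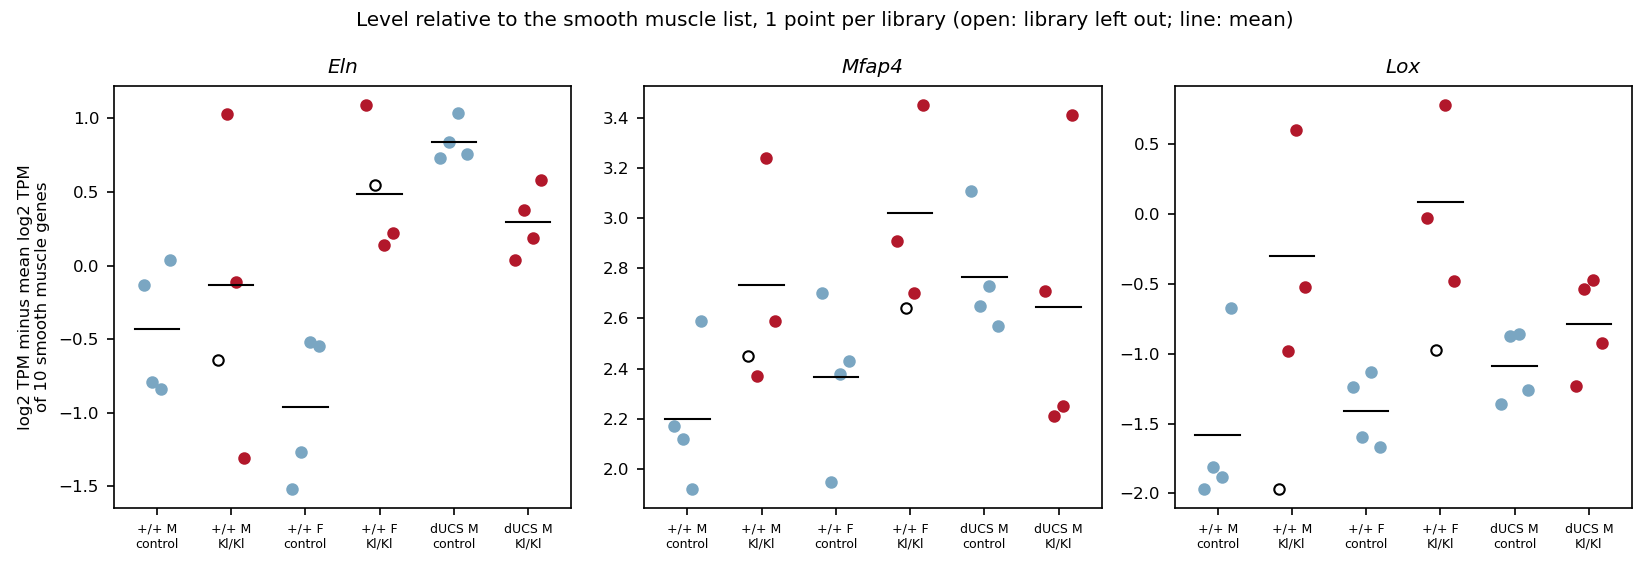
Log2 TPM of Eln, Mfap4 and Lox minus the mean log2 TPM of the 10 smooth muscle genes (vertical axis, a separate scale per panel) in every library of the 6 groups; colours, open points and lines are as in the plot of TPM by library. The 4 dUCS control males lie between 0.73 and 1.04 for Eln, above all Bmp2+/+ male controls, which lie between -0.84 and 0.04.

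Within groups, the 10 genes varied together to very different degrees. Each library's deviation from its group mean was taken on the log2 median-of-ratios scale over the 22 libraries, and 65 relations were computed (45 pairs of the 10 genes, and each gene with the smooth muscle and the fibroblast list), with permutations within groups and p-values adjusted over the 65. Of the 45 pairs, 44 had a Pearson r above 0, the median r was 0.57, and 13 pairs had an adjusted permutation p under 0.05. The libraries share the scaling and 2 library sets of 12 and 10, and r is given inside each set for the pairs described. Over 24 libraries r was 0.42 for Eln with Lox and 0.73 for Eln with the smooth muscle list. It was 0.71 for Eln with Fbn1, 0.66 for Fbn1 with Loxl1 and 0.85 for Mfap4 with Mfap5. The rounded r of the other relations given with a p differed by 0.02 or less.

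One tight group was Eln with Loxl1, Efemp2 and Emilin1. Eln and Loxl1 had r = 0.89 (permutation p = 0.00013, adjusted 0.00195) and rho = 0.79 (permutation p = 0.00054, adjusted 0.00702), with r = 0.83 without the 2 libraries farthest from the median of Loxl1, and r = 0.92 and 0.78 in the sets. Efemp2 and Loxl1 had r = 0.90 (permutation p = 0.00013, adjusted 0.00195) and rho = 0.83 (permutation p = 0.00023, adjusted 0.00498), 0.81 without the 2 farthest, and 0.92 and 0.91 in the sets. Emilin1 and Loxl1 had r = 0.74 (permutation p = 3e-05, adjusted 0.000975) and rho = 0.90 (permutation p = 2e-05, adjusted 0.0013), 0.89 without the 2 farthest, and 0.69 and 0.96 in the sets. Emilin1 and Efemp2, whose promoters are printed above, had r = 0.77 (permutation p = 0.00055, adjusted 0.00596) and rho = 0.76 (permutation p = 0.00085, adjusted 0.00789), 0.78 without the 2 farthest, and 0.76 and 0.94 in the sets. Fbn1 also followed Eln, with r = 0.76 (permutation p = 0.00103, adjusted 0.00669), 0.63 without the 2 farthest, and 0.85 and 0.42 in the sets. With Loxl1 it had r = 0.75 (permutation p = 0.00321, adjusted 0.0174), 0.58 without the 2 farthest, and 0.85 and 0.22 in the sets. Fbn1 had r = 0.46 with Emilin1 and 0.52 with Efemp2, while Mfap4 had 0.20 and 0.61 and Mfap5 -0.03 and 0.52.

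A second tight pair was Mfap4 with Fbln5, with r = 0.91 (permutation p = 0.00015, adjusted 0.00195) and rho = 0.79 (permutation p = 0.00038, adjusted 0.00617), 0.75 without the 2 farthest, and 0.92 and 0.94 in the sets. Mfap5 followed both genes of this pair. With Mfap4 it had r = 0.88 (permutation p = 0.00096, adjusted 0.00669), 0.68 without the 2 farthest, and 0.95 and 0.62 in the sets. With Fbln5 it had r = 0.84 (permutation p = 0.0111, adjusted 0.0451), 0.36 without the 2 farthest, and 0.94 and 0.34 in the sets. Mfap4 also followed the smooth muscle list, with r = 0.80 (permutation p = 3e-05, adjusted 0.000975) and rho = 0.81 (permutation p = 5e-05, adjusted 0.00162), 0.66 without the 2 farthest, and 0.84 and 0.66 in the sets. For Eln and the same list r was 0.68 (permutation p = 0.0218, adjusted 0.0644) and rho 0.63 (permutation p = 0.0143, adjusted 0.0557), falling to 0.47 without the 2 farthest, with 0.95 and 0.49 in the sets.

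Lox was less tied to Eln and Loxl1. Its r with Eln was 0.37 (permutation p = 0.293, adjusted 0.346; rho 0.12, permutation p = 0.65, adjusted 0.768) and turned to -0.19 without the 2 farthest libraries, with 0.58 and 0.01 in the sets. With Loxl1 it was 0.43 (permutation p = 0.324, adjusted 0.371; rho 0.02, permutation p = 0.953, adjusted 0.983), and -0.30 without the 2 farthest, with 0.59 and 0.03 in the sets. With Mfap4, Fbln5 and Mfap5 it had r = 0.52, 0.57 and 0.63, near the median of all pairs, and in the second set these were -0.41, -0.39 and -0.24. Emilin1 and Mfap5 had the lowest r of the 45 pairs, -0.03 (permutation p = 0.895, adjusted 0.895; rho -0.19, permutation p = 0.438, adjusted 0.606), with 0.19 and -0.79 in the sets.

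**Figure D4:**
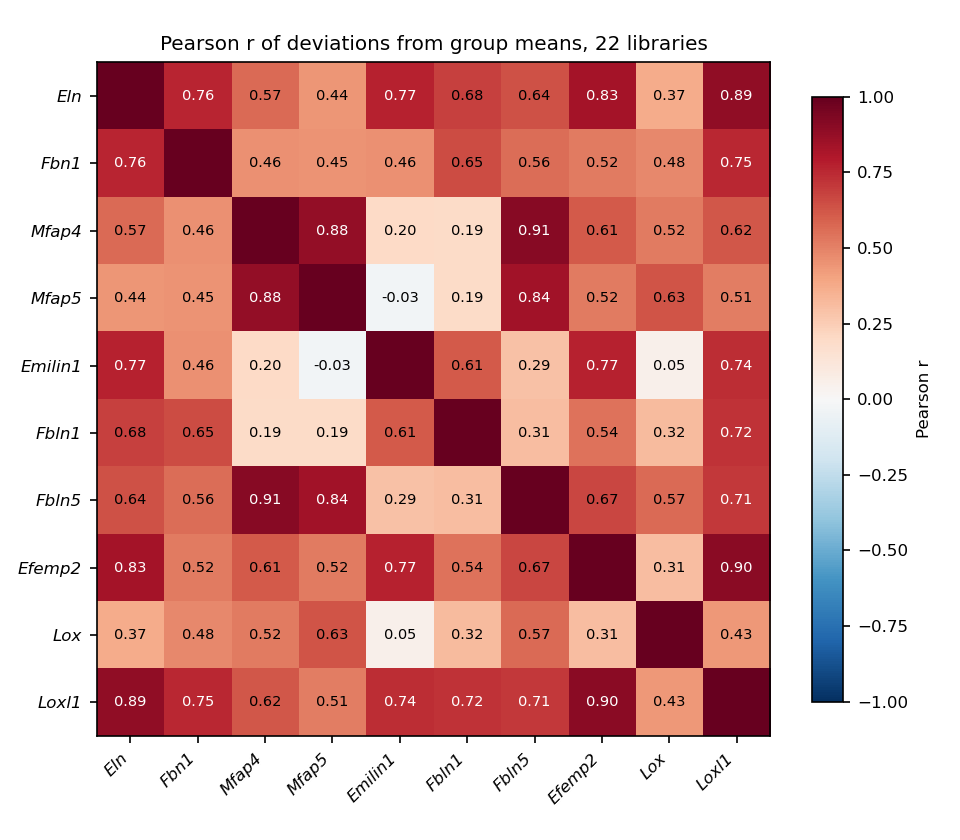
Pearson r (colour and printed number, blue for -1 to red for 1) between each pair of the 10 genes, over the deviations of 22 libraries from their group means on the log2 median-of-ratios scale. Eln, Efemp2 and Loxl1 reach 0.83 to 0.90 with each other, while Lox has 0.05 with Emilin1.

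The genes outside the 10 whose deviations were most like those of Eln, by Pearson r of log2(TPM + 1) over the 22 libraries among 9924 genes, were Islr (0.951), Col18a1 (0.923), Dact3 (0.921), Fzd2 (0.915) and B3gnt9 (0.914). Col18a1 encodes a basement membrane collagen and Fzd2 a Wnt receptor. On the median-of-ratios scale they ranked 1, 13, 8, 2 and 4. Within the 10, Loxl1 came closest to Eln on the deposited scale (0.926).

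Other genes of elastic fibre assembly did not pass. Of 20 further microfibril and elastin-associated genes, such as Fbn2 and Ltbp4, 10 were tested and 0 passed in limma in any of the 5 comparisons, and their median change was -0.02 in Bmp2+/+ males, 0.15 in females and 0.13 in dUCS males for Klotho. Of 10 further crosslinking and pro-enzyme processing genes, 5 were tested and 0 passed. limma voom tested all 20 and all 10 and also called 0 genes of either list.

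Genes whose products degrade elastin were higher in Kl/Kl aortas. Of the 7 tested of 11, 5 passed with a rise in Bmp2+/+ males and in females (Ctsl, Ctsb, Ctsk, Ctss and Mmp12) and 3 in dUCS males (Ctsk, Ctss and Mmp12). None passed with a fall, and the list medians were 1.74, 2.02 and 1.21 against 0.09, 0.29 and 0.26 for all tested genes. Mmp12, macrophage elastase, went from 0.0313 ± 0.0205 TPM (SD, n = 4) to 15.5 ± 5.3 TPM (SD, n = 3) in Bmp2+/+ males, from 0.187 ± 0.304 TPM to 29.2 ± 7.76 TPM in females and from 0.0384 ± 0.0286 TPM to 7.97 ± 3.15 TPM in dUCS males. Its fitted changes were 3.91 (SE 0.28, limma adjusted p 1.62e-07), 4.67 (SE 0.28, limma adjusted p 1.15e-08) and 3.02 (SE 0.26, limma adjusted p 2.51e-06). Ctsk, the collagen- and elastin-cleaving cathepsin K, went from 1.82 ± 0.574 TPM (SD, n = 4) to 23.5 ± 4.66 TPM (SD, n = 3) in Bmp2+/+ males, a change of 3.10 (SE 0.30, limma adjusted p 5.19e-06). In females Ctsk changed by 3.43 (SE 0.30, limma adjusted p 9.01e-07) and in dUCS males by 1.93 (SE 0.27, limma adjusted p 0.000911). Ctss, another elastin-cleaving cathepsin, changed by 2.39 (SE 0.31, limma adjusted p 0.000124), 3.11 (SE 0.30, limma adjusted p 2.55e-06) and 1.82 (SE 0.28, limma adjusted p 0.00179). Ctsb lost its female call in voom. In the fit of all 24 libraries 0 genes of the list passed, as for the whole table.

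In each of the 3 Klotho comparisons 1 inhibitor gene passed, and 1 or 2 receptor genes. Of all tested genes 1.1%, 2.6% and 0.644% passed there. Timp1, an inhibitor of metalloproteinases, was the only 1 of 6 tested inhibitors to pass. It rose by 2.17 (SE 0.32, limma adjusted p 0.000621), 2.63 (SE 0.31, limma adjusted p 3.08e-05) and 1.95 (SE 0.29, limma adjusted p 0.00133) in the 3 Klotho comparisons. The medians of the 6 inhibitors were 0.80, 0.48 and 0.46, against 0.09, 0.29 and 0.26 for all tested genes. With median-of-ratios scaling they were 0.64, 0.05 and 0.13. Of 3 tested elastin-binding receptor genes, Lgals3 (galectin-3, also abundant in macrophages) passed in all 3 comparisons, with rises of 2.42 (SE 0.37), 2.78 (SE 0.36) and 2.63 (SE 0.33). Ctsa passed with a rise in females. The medians of the 3 tested receptor genes were 1.07, 1.55 and 0.99, and 0.91, 1.09 and 0.66 with median-of-ratios scaling. In voom, which tested all 7 receptor genes of the list, Ctsa also passed in both groups of males and Itgb3 in females. Macrophage markers moved with these lists: Cd68 and Mpeg1 rose in all 3 comparisons, and the 8 markers summed to between 17.6 and 61.5 TPM in the 12 control libraries and to between 78.8 and 264 TPM in the 10 kept Kl/Kl libraries. In the 2 left-out libraries they summed to 36.4 and 31.2 TPM, within the control range. How far these cells account for the protease and inhibitor levels was not tested. In the dUCS comparisons 0 genes of any of these lists passed in limma.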

How the data were processed

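Poly(A) RNA libraries were made with a directional kit, per the labels' protocols. Values are TPM deposited by the authors in 1 table, and the submitters' processing notes name Partek and mm39; the sources used here give no aligner, annotation or strand setting. Every column summed to 482073 TPM, and the values carry a constant of 1e-04 read, from which reads were estimated; 73% of 256604 values between 0.5 and 20 reads lay within 0.05 of a whole number. TPM of at least 1 in at least 4 libraries kept 9933 genes. limma 3.58.1 (R 4.3.3) fitted log2(TPM + 1), with trend, 6 group means and library set (the 2 spellings of library names), and Benjamini-Hochberg adjustment, threshold 0.05, two-sided. limma voom used 22374 genes with at least 10 estimated reads in 4 libraries. The limma fit was tested on simulated data, where the share of false calls exceeded the threshold. Calls near the threshold, such as that of Lox in females, therefore need caution. The 10 genes, the gene lists, the markers and the 22-library choice were made with earlier results of these data known. All 10 genes are named; of each list, up to 4 called genes have values, and Ctsb is named without values. Libraries with the same replicate number did not pair, and pairing by neighbouring numbers in the library names was not tested. Estimated reads give no interval here.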

Additional observations from a re-analysis of the deposited data

Results flagged for a closer look

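Mfap4 stood at 122 TPM in replicate 4 of the dUCS male Kl/Kl group, far from the other 3 libraries (its gap to the nearest, divided by the group's range, was 0.902). Fbln1 stood at 0.912 TPM in replicate 2 of the Bmp2+/+ female controls, apart from the other 3 (0.913). The limit for a group of 4 is 0.829, 40 groups of values were checked, and chance puts about 1 in 20 past it.

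For Eln, all dUCS male Kl/Kl libraries lay below their controls' mean and all kept Bmp2+/+ female Kl/Kl libraries above theirs. The difference of the 2 Klotho effects, a test added after the data were seen, was -2.05 (SE 0.74, unadjusted p 0.0124), and its limma adjusted p of 1 did not pass. Over all 24 libraries it was -2.32 (unadjusted p 0.00385, limma adjusted p 1). In this test 0% of all genes passed and 3.67% had an unadjusted p under 0.05. The same difference for Lox was -1.27 (SE 0.44, unadjusted p 0.00972, limma adjusted p 1). These groups differ in both sex and Bmp2 genotype, which cannot be told apart here.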

How the results depend on the processing

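The 1 call among the 10 genes, Lox in females, held with a pseudocount of 0.1, no filter, a TPM minimum of 5, no library set and age as a covariate. The number of called genes in females was 0 with all 24 libraries, 0 with median-of-ratios scaling, 0 with both, 0 with limma voom and 0 with voom on all 24. It was 2 (Lox and Mfap5) with the compared groups alone and 2 in library set 2 alone, and ranged from 0 to 1 when 1 library was left out. Lox then lost the call without female control replicate 2, 3 or 4 or female Kl/Kl replicate 1 or 3, with changes of 1.10 to 1.75 over all such fits. In Bmp2+/+ males the number ranged from 0 to 3, and without Kl/Kl replicate 3 it was 3 (Fbln5 0.83, Lox 1.51 and Mfap5 0.98). The female Fbn1 difference was 1.19 to 1.46 without 1 library, where the exact test can no longer reach 0.05. The count of all tested genes called, 109, 258 and 64 in the 3 Klotho comparisons, was 0 in each with all 24 libraries; it was 336, 724 and 269 in voom, 48, 129 and 320 at a TPM minimum of 5, 129, 988 and 66 with no filter, 174, 376 and 127 with median-of-ratios scaling, and 36 to 410, 134 to 535 and 38 to 159 with 1 library left out. In limma, 0 genes passed in either dUCS comparison under any alternative, except 1 among Kl/Kl males in library set 1 alone.

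Of 902 values of the 9 fitted genes in the 5 comparisons under alternatives, 802 kept their sign and 100 changed it, 92 of these by less than the spread within groups. None of the values whose sign changed had passed the test. The changes listed next also include Fbn1 and the difference between sexes for Lox, which are outside the 902. With all 24 libraries the sign changed for Klotho in Bmp2+/+ males Loxl1 (-0.02), and for dUCS in Kl/Kl Fbn1 (0.02). With median-of-ratios scaling the sign changed for Klotho in Bmp2+/+ males Loxl1 (-0.10), for Klotho in females Fbln1 (-0.14), Loxl1 (-0.03), for Klotho in dUCS males Fbln1 (-0.01), Fbln5 (-0.10), Lox (-0.17), Emilin1 (-0.10), Loxl1 (-0.15), for dUCS in controls Loxl1 (0.11), for dUCS in Kl/Kl Loxl1 (0.05) and for difference between sexes Lox (-0.20). With all 24 libraries and median-of-ratios scaling the sign changed for Klotho in Bmp2+/+ males Loxl1 (-0.14), for Klotho in females Fbln1 (-0.05), for Klotho in dUCS males Fbln1 (-0.01), Fbln5 (-0.10), Lox (-0.17), Emilin1 (-0.10), Loxl1 (-0.15), for dUCS in controls Loxl1 (0.08) and for dUCS in Kl/Kl Fbln5 (0.01), Loxl1 (0.08), Mfap4 (0.03). With limma voom the sign changed for Klotho in Bmp2+/+ males Emilin1 (-0.02), Loxl1 (-0.17), for Klotho in females Fbln1 (-0.42), Loxl1 (-0.11), for Klotho in dUCS males Fbln1 (-0.10), Fbln5 (-0.25), Lox (-0.26), Efemp2 (-0.05), Emilin1 (-0.18), Mfap5 (-0.01), Loxl1 (-0.34), for dUCS in controls Loxl1 (0.17) and for difference between sexes Lox (-0.36). With all 24 libraries and limma voom the sign changed for Klotho in Bmp2+/+ males Loxl1 (-0.24), for Klotho in females Fbln1 (-0.18), for Klotho in dUCS males Fbln1 (-0.10), Fbln5 (-0.25), Lox (-0.26), Efemp2 (-0.05), Emilin1 (-0.18), Mfap5 (-0.01), Loxl1 (-0.34), for dUCS in controls Loxl1 (0.13) and for dUCS in Kl/Kl Loxl1 (0.03), Mfap4 (0.04). Without the library set the sign changed for Klotho in Bmp2+/+ males Fbln1 (0.00), for dUCS in controls Loxl1 (0.11) and for dUCS in Kl/Kl Loxl1 (0.04). With a pseudocount of 0.1 the sign changed for Klotho in Bmp2+/+ males Loxl1 (-0.01). In library set 1 alone the sign changed for Klotho in Bmp2+/+ males Loxl1 (-0.03), for dUCS in controls Efemp2 (-0.05) and for dUCS in Kl/Kl Mfap4 (0.17). In library set 2 alone the sign changed for difference between sexes Lox (-0.48). With the compared groups alone the sign changed for dUCS in controls Efemp2 (-0.05), and for dUCS in Kl/Kl Mfap4 (0.17). Leaving out 1 library, the changes that crossed 0 ran for Klotho in Bmp2+/+ males Fbln1 from -0.34 to 0.23, Efemp2 from -0.08 to 0.75, Emilin1 from -0.44 to 0.86, Eln from -0.29 to 1.16, Loxl1 from -0.33 to 0.44. They ran for Klotho in females Fbln1 from -0.07 to 0.20, Emilin1 from -0.05 to 0.78, Loxl1 from -0.01 to 0.49. They ran for Klotho in dUCS males Fbln1 from 0.00 to 0.21, Fbln5 from -0.06 to 0.18, Lox from -0.05 to 0.36, Emilin1 from 0.00 to 0.30, Loxl1 from -0.15 to 0.17. They ran for dUCS in controls Efemp2 from -0.02 to 0.16, Loxl1 from -0.21 to 0.11. They ran for dUCS in Kl/Kl Fbln1 from -0.51 to 0.24, Fbln5 from -0.41 to 0.03, Efemp2 from -0.60 to 0.51, Emilin1 from -0.63 to 1.11, Eln from -0.90 to 1.03, Loxl1 from -0.62 to 0.41, Mfap4 from -0.73 to 0.17, Fbn1 from -0.75 to 0.11. They ran for difference between sexes Lox from -0.21 to 0.45. The cause of these sign changes was not tested.

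The replicate block left 0 of the 10 genes called in females (Lox 1.36, adjusted p 0.0613) and changed the sign for Klotho in Bmp2+/+ males Loxl1 (-0.02), for dUCS in controls Efemp2 (-0.03) and for dUCS in Kl/Kl Efemp2 (-0.04), Eln (-0.02). The shared replicate numbers do not pair the libraries: same-numbered libraries had correlations of deviations between -0.48 and 0.32 over the comparisons. Some control and Kl/Kl mice of the same age have neighbouring numbers in their library names. Pairing by those numbers was not tested.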
